A study of Mus musculus with 23 samples.

Results

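The comparison described here sets the ventral prostate 3 d after castration against the ventral prostate of intact mice, both on the control diet. It uses the 3 labelled libraries of castrated mice and the 4 libraries of intact mice, out of 23 in the series, and covers all genes of the table, of which 13412 of 20308 had enough counts to be tested. All mice were C57BL/6J. The castrated mice had eaten a diet with 4 mg folic acid per kg since before birth, were operated on at 7 weeks of age and gave the gland 3 d later. The intact mice had eaten the same diet and gave the gland at 7 weeks. No group was sham-operated or was intact at the later age, so the loss of testicular androgen, the surgery and the 3 d of added age cannot be told apart. Each library was read as 1 mouse, because the labels put 4 mice in a group, and no litter is named. For values set side by side, the text also uses mice of the same strain on a diet with 24 mg folic acid per kg, 4 libraries at 3 d after castration and 4 intact, and 4 libraries of mice on the control diet at 10 d after castration.

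The ventral prostate of the mouse is a secretory gland whose luminal epithelial cells depend on androgen. Testosterone from the testes is converted in the gland to dihydrotestosterone, the hormone that keeps genes of secretion and differentiation active. After castration the luminal cells stop secreting and many of them die over the following days, while basal cells and stroma largely remain. In tissue RNA, fewer cells of a type and less RNA per cell of that type cannot be told apart, and this holds for every change given here.

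The libraries carried the marks of ventral prostate. Sbp, which encodes spermine-binding protein, a major secretion under androgen control (GRCm38, chromosome 17, 23941672 to 23945607), took 30.9, 30.8 and 30.5% of all counts in the 3 d mice, against 50.1, 51.9, 52.7 and 52.8% in the intact mice (exact permutation test, two-sided, p = 0.0286, the smallest that 35 splits allow). Reads shared with its relative Sbpl were divided by estimate. The luminal keratins Krt8 and Krt18 had 461 to 741 and 673 to 950 CPM at 3 d and 523 to 629 and 761 to 857 CPM in intact mice, with log2 changes of 0.11 for Krt8 and -0.03 for Krt18, the second of which was 0.71 when libraries were scaled by their totals. The 11 listed seminal vesicle genes together held at most 0.000129% of the counts of any of the 7 libraries. Library totals were 9.69 to 12.4 M counts at 3 d and 10.7 to 15.5 M counts in intact mice. Skeletal muscle genes took 0.462% of counts in intact replicate 2 and 0.0302 to 0.0405% in the other intact libraries, against 0.0365 to 0.0683% at 3 d. Of 23 such genes 4 fell (17.4%, against 6.15% of all genes). That count was 1 without intact replicate 2 or 3 d replicate 1 or 3, and 2 without 3 d replicate 4 or by DESeq2. The myosin Myh2 had 0.501, 0.0768 and 0 CPM at 3 d, against 22.2, 14.1, 9.42 and 8.93 CPM in intact mice, and the actin Acta1 had 11.9, 14.1 and 20.3 CPM at 3 d, against 94.8, 874, 60.6 and 79.0 CPM in intact mice. On the first principal component, which held 35% of the variance, 3 d replicate 3 lay farther from the intact libraries (72.5) than 3 d replicates 1 and 4 (39.9 and 45.5).

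With a smaller share for Sbp, most other transcripts filled more of the 3 d libraries. Levels are CPM, a gene's counts relative to its library's total, after scaling by TMM factors, which were 1.09 to 1.17 at 3 d and 0.655 to 0.703 in intact mice, and changes are relative to the bulk of genes. Scaled by library totals alone, the median of all genes was 0.73 on the log2 scale, so a gene or list with a change between -0.73 and 0 then lies above 0. The distance of a list's median from that of all genes differed by at most 0.1 between those scales. A change is given as the log2 ratio of 3 d over intact with its standard error (SE), and a gene is called where its p-value from edgeR's quasi-likelihood test, adjusted by Benjamini-Hochberg over the 13412 genes, is under 0.05.

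At 3 d after castration 514 genes had risen (3.83% of those tested) and 825 had fallen (6.15%). Both shares together came to 9.98%. Of the called genes 695 had changed at least 2-fold, 253 upward and 442 downward. The median log2 change of all genes tested was -0.01 and the median SE was 0.31. With library totals alone 5464 genes were called higher and 232 lower. In 1500 genes (11.2%) all 3 of the 3 d libraries lay above all 4 intact ones, and in 1858 genes (13.9%) they lay below.

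Of 32 tested genes listed as androgen-induced or secreted by the prostate, 12 fell (37.5%, against 6.15% of all genes), 2 rose (1 without intact replicate 2, 3 or 4 or 3 d replicate 1 or 4) and 18 were not called, with a median log2 change of -1.25 against -0.01 over all genes. This list and the others of the report were chosen with earlier results of these data known, so their shares are no independent test. Spink3 (now Spink1), a secreted trypsin inhibitor, had 153, 62.8 and 92.7 CPM at 3 d, against 14670, 14140, 12990 and 7324 CPM in intact mice. The groups lay far apart, and the log2 change was -6.90 ± 0.36 (edgeR, adjusted p = 9.64e-15). Fkbp5, an androgen- and glucocorticoid-induced co-chaperone of steroid receptors (chromosome 17, 28399094 to 28517527), had 68.8, 81.0 and 58.7 CPM at 3 d, against 255, 395, 409 and 190 CPM in intact mice, and Tsc22d3, another such target, had 99.8, 102 and 97.0 CPM against 258, 253, 291 and 215 CPM. Neither gene's groups overlapped, and 13.9% of all genes likewise lay wholly lower at 3 d. The secreted inhibitor Spink5 (-2.60 ± 0.58), the apolipoprotein Apof (-3.96 ± 0.48) and the potassium channel Kcnk3 (-3.20 ± 0.50) fell as well, and so did Sbp itself (-1.49 ± 0.33).

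**Figure D1:**
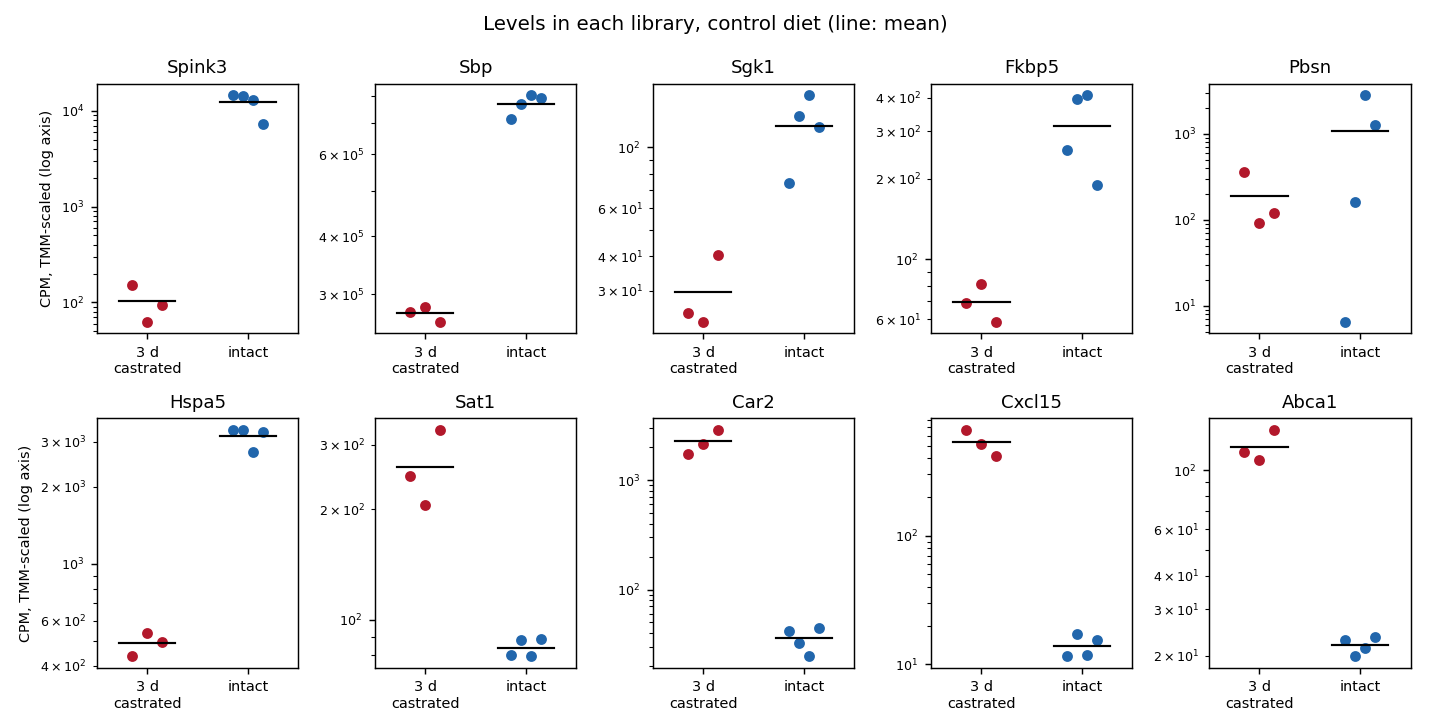
Levels of 10 genes in CPM scaled by TMM factors, on log axes, in the 3 libraries at 3 d after castration (red) and the 4 intact libraries (blue) on the control diet, with a black line at each group's mean. The groups do not overlap except for Pbsn, whose intact libraries run between 6.55 and 2813 CPM. Over all genes 11.2% lie wholly higher at 3 d and 13.9% wholly lower.

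A few well-known secretory genes did not separate the groups, since the intact mice differed among themselves. Pbsn, probasin (chromosome X, 77837901 to 77853623), had 357, 90.6 and 119 CPM at 3 d, against 6.55, 160, 2813 and 1267 CPM in intact mice. Msmb, beta-microseminoprotein, had 8.15, 2.92 and 1.503 CPM at 3 d, against 0.134, 33.9, 348 and 181 CPM in intact mice. Defb50, a beta-defensin, had 45.4, 5.53 and 16.2 CPM at 3 d, against 28.2, 163, 979 and 540 CPM in intact mice. All 3 genes ranked the intact libraries alike, with replicate 3 highest, then 4, 2 and 1. Neither Pbsn nor Msmb was called (adjusted p = 0.271 and 0.0984), and Defb50 was (0.0338) but not without intact replicate 3 or 4 or 3 d replicate 3 or 4 (0.056 to 0.132). What makes the intact libraries differ in these genes was not tested.

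Genes that carry or shape steroid signals changed in both directions. Among 26 tested steroid receptors, cofactors and converting enzymes 6 rose and 4 fell (23.1% and 15.4%, against 3.83% and 6.15% of all genes). Hsd17b11, a 17-beta-hydroxysteroid dehydrogenase, rose by 1.36 ± 0.25. Hoxb13, a homeobox factor of the prostate, fell by 1.22 ± 0.23, and the coactivator Ncoa4 by 0.93 ± 0.25. The rises numbered 3 without intact replicate 2 or 3 or 3 d replicate 1 or 4, the falls 2 without intact replicate 3 or 3 d replicate 3 or 4, and Ncoa4 was not called without intact replicate 3 or 3 d replicate 3 or 4 (0.0616 to 0.0968) or with library totals alone (0.61). Esr1, the estrogen receptor (log2 change 0.98, adjusted p = 0.142), and the 5-alpha-reductase Srd5a1 (-0.43, 0.88), which had under 4 CPM in every library, were not called.

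The promoter of Sgk1 is shown since it holds letters that steroid receptors are known to read. Sgk1, a serum- and hormone-induced kinase, had 25.0, 23.1 and 40.6 CPM at 3 d, against 73.9, 130, 155 and 118 CPM in intact mice, and fell by 2.02 ± 0.24 with no overlap (edgeR, adjusted p = 3.49e-07). Its promoter holds the palindrome AGAACA and TGTTCT, with any 3 bases between, the element through which androgens and glucocorticoids alike act on genes. The stretch is in RefSeq's GRCm38.p6 at chr10:21993681-21993735 on the plus strand, 174 bases before RefSeq's start. Capitals mark the palindrome's fixed letters.
Sgk1: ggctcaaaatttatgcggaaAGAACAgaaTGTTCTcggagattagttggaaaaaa
These letters, searched on both strands in the window of 250 bases before to 50 bases after each start, are present in 3 of 27025 genes (0.0111%), and in 1 of the 10687 tested genes with a promoter in the table, which is Sgk1. That no match was found in the other windows says nothing of sites outside them.

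Many genes of the machinery that makes secreted protein fell. A secreted protein enters the endoplasmic reticulum (ER) through a channel, is folded and glycosylated there, and leaves in vesicles for the Golgi. At each of the 5 stages listed, between 46.9 and 72.0% of the tested members fell, against 6.15% of all genes, and no member rose. Exceptions were 1 vesicle gene called higher by DESeq2, 1 with only the groups compared in the fit, and rises with library totals alone. On that scale 5, 19, 7, 6 and 11 members fell and 2, 1, 7, 6 and 4 rose at entry, folding, degradation, glycosylation and vesicles, against 18, 26, 15, 25 and 33 falls with TMM.

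**Figure D2:**
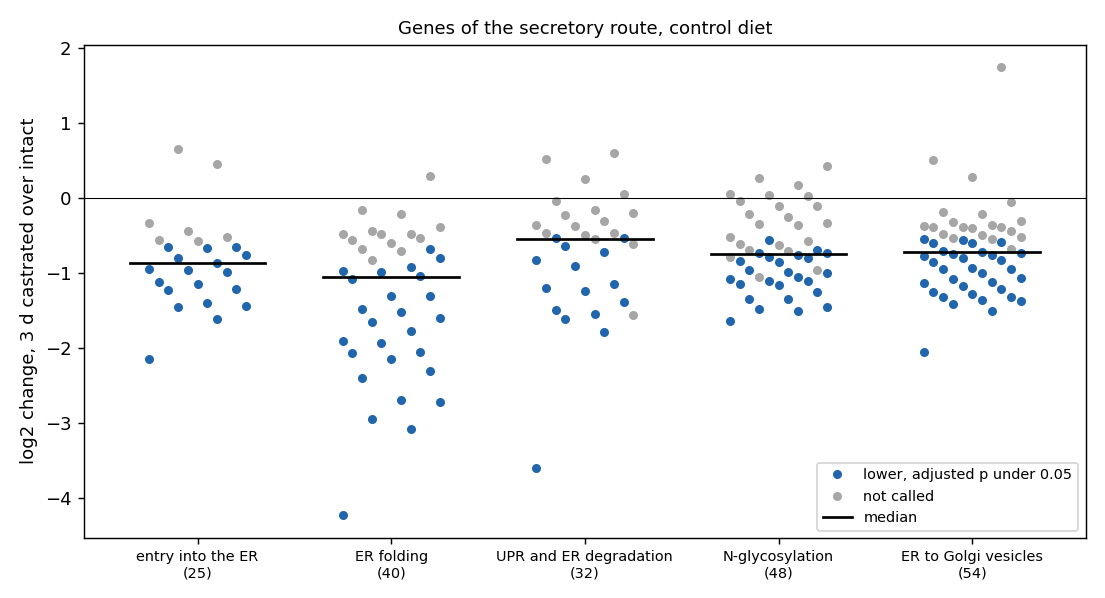
Log2 changes (3 d castrated over intact, control diet) of the tested members of 5 lists along the secretory route, with the number tested in brackets. Blue points are called lower, grey points are not called, and black lines are medians, which lie between -1.06 (ER folding) and -0.54 (UPR and ER degradation).

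At the entry into the ER 18 of 25 genes fell, with a median log2 change of -0.87. The channel's pore subunit Sec61a1 had 194, 164 and 226 CPM at 3 d, against 451, 409, 431 and 403 CPM in intact mice. Its partner Sec61b fell by 1.44 ± 0.30 and the translocon-associated Ssr4 by 2.15 ± 0.26. Of the signal peptidase, which cuts off the leader peptide, Sec11c fell by 1.61 ± 0.22 and Spcs2 by 1.22 ± 0.18, and the receptor subunit Srprb, which helps dock the ribosome, changed by -1.143 ± 0.21. Each of these genes was lower in all 3 of the 3 d libraries than in any intact one, as were 13.9% of all genes.

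Of 40 folding genes 26 fell and 14 were not called, with a median of -1.06. Hspa5 (BiP), the main chaperone of the ER (chromosome 2, 34771970 to 34777547), had 435, 539 and 496 CPM at 3 d, against 3335, 3337, 2721 and 3275 CPM in intact mice, a 6.46-fold fall (log2 -2.69 ± 0.25, edgeR, adjusted p = 2.39e-09). Calr, the calcium-binding lectin chaperone calreticulin (chromosome 8, 84841850 to 84846934), had 920, 1723 and 525 CPM at 3 d, against 6439, 5464, 6922 and 8932 CPM in intact mice. Hsp90b1 (Grp94) had 1006, 1137 and 832 CPM at 3 d, against 4206, 3597, 4000 and 4708 CPM in intact mice. P4hb, a disulfide isomerase, had 1180, 1000 and 1139 CPM at 3 d, against 4167, 4049, 4375 and 4316 CPM. All 4 were among the 12 genes with the largest loss of CPM. Fkbp11, a prolyl isomerase of secretory cells (chromosome 15, 98724366 to 98728198), fell by 4.23 ± 0.51, and the nucleotide exchange factor Hyou1 by 2.15 ± 0.23. The oxidase Ero1l was not called (log2 change 0.29, adjusted p = 0.737). The folding list together held 0.909, 1.03 and 0.955% of counts at 3 d, against 2.08, 1.86, 1.97 and 2.20% in intact mice, and 1.39% against 4.21% on average when Sbp was left out of the total (exact permutation p = 0.0286 both ways).

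Several promoters of these genes are shown because they share the ER stress response element, the letters CCAAT and CCACG with any 9 bases between, through which ATF6 and XBP1 are known to switch on chaperone genes together with NF-Y. It was searched on both strands in RefSeq's promoters (250 bases before to 50 after the start, GRCm38.p6). It is present in 37 of 27025 genes (0.137%). Among the tested genes with a promoter in the table it was in 8 of 35 folding genes, 7 of 21 that fell and 1 of 14 that did not, the oxidase gene Ero1lb (log2 change -0.68, adjusted p = 0.0792). It was also in Derl3 and Syvn1 of the degradation list, which fell, and over all genes it was in 9 of 661 that fell, 0 of 411 that rose and 10 of 9615 that were not called. The stretches below show the element with 20 bases on each side, on the strand of the gene, and capitals mark its fixed letters, read as CCAAT and CCACG or, in the other orientation, as CGTGG and ATTGG.
Hspa5, chr2:34772005-34772063: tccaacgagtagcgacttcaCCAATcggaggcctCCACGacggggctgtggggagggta
Hsp90b1, chr10:86705618-86705676: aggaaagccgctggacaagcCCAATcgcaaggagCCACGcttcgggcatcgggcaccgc
Hsp90b1, chr10:86705513-86705571: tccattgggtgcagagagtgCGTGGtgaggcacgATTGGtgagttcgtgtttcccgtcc
Calr, chr8:84847055-84847113: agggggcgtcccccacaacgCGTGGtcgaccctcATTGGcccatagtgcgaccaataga
Canx, chr11:50325780-50325838: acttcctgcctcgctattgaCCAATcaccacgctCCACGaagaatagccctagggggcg
Pdia6, chr12:17266471-17266529: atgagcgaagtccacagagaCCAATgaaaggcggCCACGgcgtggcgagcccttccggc
Dnajc3, chr14:118937807-118937865: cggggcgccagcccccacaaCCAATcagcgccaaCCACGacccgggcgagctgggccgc
Creld2, chr15:88819500-88819558: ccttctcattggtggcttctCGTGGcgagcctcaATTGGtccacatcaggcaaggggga
Derl3, chr10:75893222-75893280: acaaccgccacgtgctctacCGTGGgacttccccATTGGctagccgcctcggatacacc
Syvn1, chr19:6046512-6046570: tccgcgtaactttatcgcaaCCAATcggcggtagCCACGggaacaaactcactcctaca
The genes that carry these stretches fell by between 0.97 ± 0.15 (Canx, calnexin) and 3.60 ± 0.37 (Derl3). Creld2 fell by 2.95 ± 0.29, Pdia6 by 2.06 ± 0.23 and Dnajc3 by 1.48 ± 0.17. The element of Creld2 lies between that gene and Alg12, a mannosyltransferase gene that starts in the other direction, and Alg12 was not called (log2 change -0.96 ± 0.51, adjusted p = 0.265, 3.82 CPM at 3 d and 7.42 CPM in intact mice on average). The related element, ATTGG and CCACG with any 1 base between, shares the letters CCACG but stood together with the first in none of the promoters of these lists. It is in 12 of 27025 genes (0.0444%). Over all genes tested it was in 4 of 661 that fell, 0 of 411 that rose and 4 of 9615 that were not called. In the folding, degradation and glycosylation lists it was in Dnajb11, Krtcap2 and Herpud1. Herpud1, an ER degradation factor, fell by 1.54 ± 0.17.
Herpud1, chr8:94386357-94386407: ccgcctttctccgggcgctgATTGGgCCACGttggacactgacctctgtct
The matches are letters in these windows and were not tested as binding sites.

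The unfolded protein response senses misfolded protein in the ER and raises chaperones and degradation factors. Of 32 of its genes and those of ER degradation 15 fell and none rose (median -0.54). Derl3, a retrotranslocation factor of secretory cells, had 5.22, 5.30 and 3.71 CPM at 3 d, against 49.7, 58.0, 64.9 and 58.7 CPM in intact mice. The ubiquitin ligase Syvn1 fell by 1.78 ± 0.23, the mannosidase-like Edem1 by 1.39 ± 0.15 and the membrane-bound factor Creb3l4 by 1.61 ± 0.31. Of the regulators themselves, Xbp1 had 158, 126 and 168 CPM at 3 d, against 213, 184, 204 and 184 CPM in intact mice, a log2 change of -0.38 ± 0.17 that was not called (adjusted p = 0.181). Nor were the sensor Ern1 (0.25, 0.432), Atf6 (-0.20, 0.514, against 0.53 with library totals alone) or the stress factor Ddit3 (-0.22, 0.759). Atf4 fell by 0.90 ± 0.23 (adjusted p = 0.00942), but was not called without 3 d replicate 3 (0.115) or with library totals alone (0.588). The form of Xbp1 that is spliced by Ern1 cannot be read from counts per gene.

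Genes of sugar addition and of export fell in part. Of 48 N-glycosylation genes 25 fell and 23 were not called (median -0.75). They include subunits of the oligosaccharyltransferase, which moves the sugar tree to the protein, such as Rpn1 (-1.51 ± 0.16), Ddost (-1.11 ± 0.17) and the catalytic Stt3b (-0.98 ± 0.17, not called with library totals alone, adjusted p = 0.364). The GDP-mannose enzyme Gmppb fell by 1.64 ± 0.27 and the folding sensor Uggt1 by 1.10 ± 0.19. Of 54 genes of vesicle traffic between ER and Golgi 33 fell and 21 were not called (median -0.72). Of the coat of vesicles that leave the ER, Sec13 (-1.32 ± 0.20) and Sec24d (-1.28 ± 0.20) fell, and of the coat of returning vesicles Copb2 had 254, 262 and 279 CPM at 3 d, against 625, 646, 586 and 595 CPM in intact mice. Both parts of the cargo receptor for secreted glycoproteins fell, Lman1 by 1.25 ± 0.16 and Mcfd2 by 1.08 ± 0.18, and so did the cargo receptor Surf4 (-1.35 ± 0.16), the tether Uso1 (-1.38 ± 0.19) and Kdelr3 (-2.05 ± 0.43), which returns escaped chaperones. Leaving out any 1 of the 7 libraries left 13 to 18, 24 to 25, 10 to 15, 17 to 24 and 24 to 32 falls at the 5 stages in the order given here, entry, folding, degradation, glycosylation and vesicles.

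Genes that supply protein synthesis fell in part. Of 32 genes of amino acid supply, many of them targets of ATF4, 12 fell and 1 rose (median -0.47). These were shares of 37.5% and 3.12%, against 6.15% and 3.83% of all genes. The rise was not called without intact replicate 1 or 3 d replicate 4. Phgdh of serine synthesis had 59.9, 59.5 and 58.2 CPM at 3 d, against 195, 198, 216 and 176 CPM in intact mice. Asparagine synthetase Asns fell by 1.46 ± 0.25, the proline enzyme Pycr1 by 2.21 ± 0.36 and the leucine transporter Slc7a5 by 1.82 ± 0.29. Of 23 cytosolic tRNA synthetases and their partners 7 fell (30.4%), of which Mars, which loads methionine, fell by 1.19 ± 0.22. That count was 3 without 3 d replicate 1 and 4 without intact replicate 4. Of 39 genes of folate and one-carbon metabolism, which links the diet of this series to methyl groups, 9 fell (23.1%) and none rose. The list's median was -0.45. Mat2a, which makes S-adenosylmethionine, had 404, 547 and 561 CPM at 3 d, against 2420, 2485, 2425 and 2740 CPM in intact mice. Mthfd2 of the mitochondrial folate cycle fell by 2.66 ± 0.38 and Cbs, of homocysteine removal, changed by -2.10 ± 0.29.

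Polyamines are made in large amounts by the prostate. Odc1, the first enzyme of their synthesis, had 102, 116 and 101 CPM at 3 d, against 484, 634, 531 and 418 CPM in intact mice. The spermidine synthase Srm fell by 2.05 ± 0.32, and Sat1, which starts polyamine breakdown, rose by 1.63 ± 0.21 with 246, 205 and 329 CPM at 3 d, against 79.9, 87.9, 79.4 and 88.5 CPM in intact mice. In all, 6 of 24 polyamine genes fell and 1 rose (25% and 4.17%, against 6.15% and 3.83% of all genes).

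Few genes of the ribosome were called. Of 78 cytosolic ribosomal protein genes 3 fell and none rose (3.85%, below the share of all genes), with a median of -0.35, and in 40 of them every 3 d library lay below every intact one (13.9% of all genes did). Without any 1 library 0 to 2 were called. The number called was 22 with only the 7 libraries of these groups in the fit. They took 4.33% of counts at 3 d and 3.22% in intact mice on average, but 6.25% and 6.68% when Sbp was left out of the total (exact permutation p = 0.171). Of 76 nuclear genes of the respiratory chain 11 fell (14.5%, against 6.15% of all genes), with a median of -0.34. That count was 4 without 3 d replicate 3 and 18 with only the 7 libraries in the fit. Ndufa1 of complex I fell most, by 2.07 ± 0.25, and cytochrome c, Cycs, fell by 1.198 ± 0.20. The growth regulator Myc was not called (log2 change -0.30, adjusted p = 0.457).

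**Figure D3:**
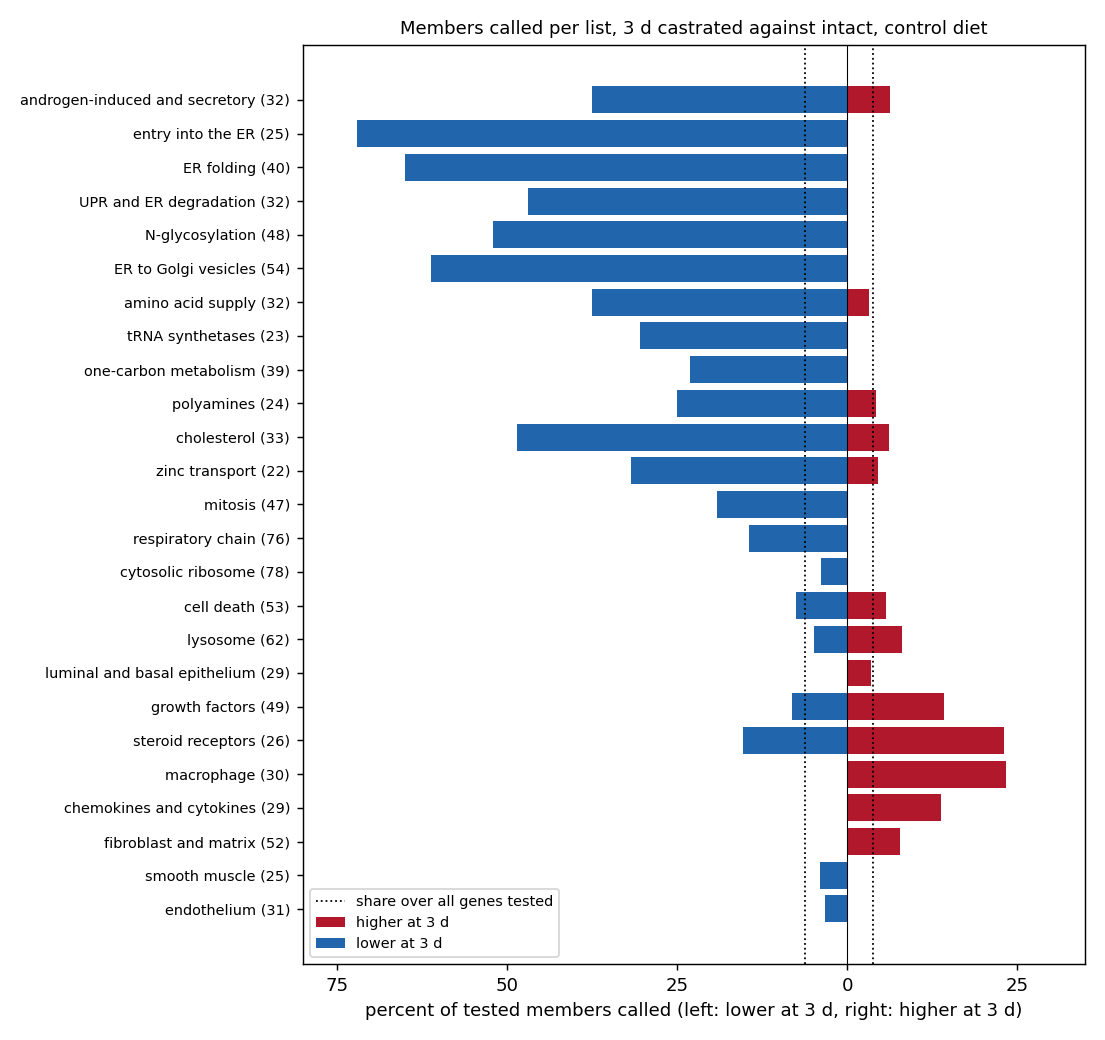
Percent of the tested members of 25 gene lists that were called lower (blue, to the left) or higher (red, to the right) at 3 d after castration than in intact mice on the control diet, with the number tested in brackets. Dotted lines give the shares over all genes tested, 6.15% lower and 3.83% higher.

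The prostate makes cholesterol and fatty acids. Of 33 cholesterol genes 16 fell and 2 rose (48.5% and 6.06%, against 6.15% and 3.83% of all genes), with a median of -0.80. The rises numbered 1 without any 1 intact library or without 3 d replicate 3 or 4. Idi1 of the isoprene steps had 12.6, 12.9 and 8.93 CPM at 3 d, against 68.7, 60.6, 50.4 and 56.1 CPM in intact mice. The synthesis enzymes Cyp51 (chromosome 5, 4081145 to 4104746), Fdps and Sqle changed by -2.07 ± 0.26, -2.25 ± 0.31 and -1.76 ± 0.33. Srebf2, the transcription factor of the pathway, fell by 0.90 ± 0.25 (adjusted p = 0.0163), but was not called without intact replicate 1 or 3 d replicate 3 or 4 (0.0533 to 0.0889) or with library totals alone (0.643). Insig1, the sterol sensor that SREBP itself induces, changed by -1.94 ± 0.24. The exporter Abca1 rose, with 117, 109 and 142 CPM at 3 d, against 23.0, 19.9, 21.4 and 23.6 CPM in intact mice (log2 2.48 ± 0.22, edgeR, adjusted p = 1.84e-09). Mylip, a ubiquitin ligase that limits the uptake of cholesterol, rose by 2.42 ± 0.19 and was among the 12 genes that gained most CPM. Of 34 genes of fatty acid and triglyceride synthesis 5 fell and 3 rose (14.7% and 8.82%, against 6.15% and 3.83% of all genes). The falls numbered 3 without intact replicate 2 or any 1 of the 3 d libraries. The rises numbered 1 without intact replicate 3 or 3 d replicate 3. The remaining 26 genes were not called, and the list's median was -0.097. The desaturases Scd1 and Scd2 fell by 1.23 ± 0.17 and 1.54 ± 0.22, and the synthase Fasn by 1.01 ± 0.23 (not called with library totals alone, adjusted p = 0.42).

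Zinc, which prostate epithelium accumulates, has its own carriers. Of 22 zinc transporters and metallothioneins 7 fell and 1 rose (31.8% and 4.55%, against 6.15% and 3.83% of all genes). The falls numbered 4 without 3 d replicate 3. The importers Slc39a10 and Slc39a6 fell by 1.53 ± 0.23 and 1.15 ± 0.17, and the ER-resident Slc39a7 by 1.26 ± 0.26. The exporter Slc30a1 rose by 0.81 ± 0.21 (adjusted p = 0.00925), but was not called without 3 d replicate 4 (0.11).

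Transcripts of several genes of sphingosine 1-phosphate, a signalling lipid, are set side by side here after their values were seen. S1pr3, a receptor for the lipid, had 2.72, 0.0768 and 0.796 CPM at 3 d, against 41.3, 41.7, 51.6 and 42.5 CPM in intact mice. Sphk1, the kinase that makes it, had 11.8, 13.8 and 9.02 CPM at 3 d, against 1.34, 1.81, 0.687 and 1.09 CPM in intact mice. Sgpl1, the lyase that destroys it, had 249, 204 and 262 CPM at 3 d, against 98.8, 82.5, 84.5 and 87.8 CPM in intact mice. None of the 3 overlapped between groups. Over all genes 11.2% lay wholly higher at 3 d and 13.9% wholly lower. The log2 changes of S1pr3, Sphk1 and Sgpl1 were -5.17 ± 0.84, 3.23 ± 0.50 and 1.43 ± 0.18. The exporter Spns2 (0.76 ± 0.23, adjusted p = 0.0344) and the phosphatase Sgpp1 (-0.57 ± 0.18, 0.0391) were called, but Spns2 was not without any 1 of the 7 libraries (0.0517 to 0.114), and Sgpp1 was not without intact replicate 1, 2 or 3 or 3 d replicate 1 or 3 (0.0832 to 0.295) and had a log2 change of 0.17 with library totals alone. The second kinase, Sphk2, and the receptors S1pr1, S1pr2 and S1pr4 were not called (adjusted p = 0.199, 0.561, 0.666 and 0.277).

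Further large falls came from genes of several kinds. Abo, the blood-group glycosyltransferase (chromosome 2, 26842503 to 26864979), fell 42.4-fold. The growth factor binding protein Igfbp2 fell by 4.44 ± 0.66 and C2cd4a, a small nuclear protein, by 6.79 ± 0.72. Mfsd2a, a lysophospholipid transporter, had no count in any 3 d library, against 5.08, 4.71, 4.42 and 1.29 CPM in intact mice, and was at least 49.3-fold lower, taking 3 counts over the 3 d group as the floor. Among abundant transcripts Nucb2, a calcium-binding protein of the secretory route, fell by 2.48 ± 0.26, and the unnamed 9530002B09Rik and 5430419D17Rik by 2.53 ± 0.31 and 2.70 ± 0.39. Pdzk1, a scaffold for membrane transporters, had 16.7, 6.61 and 7.87 CPM at 3 d, against 85.7, 93.5, 125 and 98.1 CPM in intact mice.

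Of 47 mitosis genes 9 fell (19.1%, against 6.15% of all genes) and none rose. The list's median was -1.79 when a gene at 0 is set at its bound. Summed, the list had 165 to 190 CPM at 3 d and 336 to 592 CPM in intact mice. The number of falls was 3 without 3 d replicate 3 and 5 without 3 d replicate 4, and 15 by DESeq2. Prc1, a spindle protein, fell by 3.25 ± 0.75. Of 46 DNA replication genes 2 fell and none rose (4.35% lower, below the 6.15% of all genes), and the list summed to 500.3 to 523 CPM at 3 d and 493 to 636 CPM in intact mice. Of these Rrm2, which makes deoxynucleotides, had 2.002, 0.922 and 1.06 CPM at 3 d, against 17.1, 15.9, 21.0 and 18.9 CPM in intact mice. Of 53 cell death genes 3 rose, 1 without intact replicate 4 or 3 d replicate 1 or 4, and 4 fell, shares of 5.66% and 7.55% that lie near the 3.83% and 6.15% of all genes. Trp53inp1, a p53-induced regulator of death and autophagy, rose by 1.26 ± 0.27 with 54.5, 50.5 and 89.9 CPM at 3 d, against 29.5, 27.4, 26.8 and 24.5 CPM in intact mice. The survival factor Bcl2l2 fell by 0.94 ± 0.16 (not called with library totals alone, adjusted p = 0.347). Cdkn1a (p21) had 5.01, 8.14 and 5.57 CPM at 3 d, against 1.87, 2.54, 2.55 and 1.79 CPM in intact mice, and was not called (log2 1.51 ± 0.66, adjusted p = 0.158).

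The largest rise in CPM was that of a carbonic anhydrase. Car2 (chromosome 3, 14886273 to 14900770), which hydrates carbon dioxide, had 1751, 2165 and 2899 CPM at 3 d, against 41.7, 32.6, 24.4 and 44.4 CPM in intact mice, 63.5-fold higher. Its catalytically silent relative Car8 had 116, 166 and 236 CPM at 3 d, against 18.04, 15.33, 20.03 and 18.36 CPM. Among the other genes that gained most CPM were the mechanosensitive channel Piezo2 (log2 1.29 ± 0.28), the autophagy receptor Tax1bp1 (1.13 ± 0.22), the antioxidant Prdx6 (1.09 ± 0.20), the inflammasome sensor Naip6 (1.83 ± 0.34, with reads shared among its copies) and the fatty acid binding protein Fabp5 (2.37 ± 0.30). Fosl2, a member of the AP-1 family, had 179, 199 and 200 CPM at 3 d, against 43.8, 31.0, 29.6 and 47.1 CPM in intact mice. Asgr1, a lectin receptor subunit, and Entpd8, an ectonucleotidase, rose by 4.43 ± 0.40 and 4.57 ± 0.63. The T-cell inhibitory ligand Vtcn1 rose by 3.02 ± 0.75.

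Of 49 growth factor genes 7 rose and 4 fell (14.3% and 8.16%, against 3.83% and 6.15% of all genes). The rises numbered 4 without intact replicate 1, 3 or 4 or 3 d replicate 1. The insulin-like growth factor binding protein Igfbp3 had 90.8, 46.5 and 39.97 CPM at 3 d, against 12.03, 13.8, 6.38 and 16.0 CPM in intact mice, while Igfbp2 fell. The inhibin subunit Inhbb rose by 1.89 ± 0.40 and the hepatocyte growth factor receptor Met by 1.08 ± 0.21. Gas6, a ligand of the TAM receptors, rose by 0.95 ± 0.16. Vegfa, which sustains vessels, fell by 1.01 ± 0.25 (adjusted p = 0.00698), but was not called without 3 d replicate 4 (0.066) or with library totals alone (0.431), and Ctgf, a matricellular target of YAP and TGF-beta, fell by 2.32 ± 0.54 (0.0071), again not called without that library (0.0524). Of 21 genes of prolactin, growth hormone and STAT signalling 5 rose (23.8%, against 3.83% of all genes). These rises numbered 2 without 3 d replicate 3 and 3 without any 1 of the other libraries. Socs2, a feedback inhibitor that STAT5 induces, rose by 1.54 ± 0.35, whereas the prolactin receptor Prlr was not called (-1.23, adjusted p = 0.133).

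Of 29 chemokines and cytokines 4 rose (13.8%, against 3.83% of all genes), 7 by DESeq2, and 25 were not called. Among those that rose were the neutrophil-drawing chemokines Cxcl5 (5.74 ± 0.56), Cxcl3 (5.35 ± 1.09) and Cxcl15 (5.26 ± 0.44). Cxcl15 (chromosome 5, 90794534 to 90803067) had 667, 521 and 414 CPM at 3 d, against 11.5, 17.2, 11.9 and 15.3 CPM in intact mice. Of 20 neutrophil and mast cell markers 14 had no count in any of the 7 libraries, and of the 5 tested edgeR called 0, DESeq2 0, and edgeR 1 with library totals alone, while 1 had an unadjusted p under 0.05. With only the 7 libraries in the fit 1 of 3 tested was called higher. Il1b, a main inflammatory cytokine of macrophages and neutrophils, had at most 0.0884 CPM at 3 d and at most 1.33 CPM in intact mice. Of 30 macrophage markers 7 rose (23.3%), none fell and 23 were not called, with a median of 1.49. Summed, the list had 302 to 424 CPM at 3 d and 142 to 179 CPM in intact mice. Mpeg1, a pore-forming protein of phagocytes, had 26.0, 31.7 and 27.95 CPM at 3 d, against 9.22, 12.6, 5.11 and 8.44 CPM in intact mice. The lysozyme Lyz2 rose by 2.26 ± 0.42 and the protease Ctss by 1.51 ± 0.26, whereas Emr1 (F4/80) was not called (6.01, 19.7 and 3.18 CPM at 3 d, against 1.47, 3.62, 0.884 and 2.38 CPM). The number of macrophage genes called was 4 without 3 d replicate 3 and 11 by DESeq2.

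Calls among other immune genes differed between lists, and several depended on 1 library. Ptprc (CD45), the marker of all leukocytes, had 13.8, 19.7 and 14.2 CPM at 3 d, against 4.14, 4.83, 6.68 and 5.26 CPM in intact mice. It was the 1 gene called, upward, of 16 tested lymphocyte and leukocyte genes (6.25%, against 3.83% of all genes). Of these 16 genes 4 had an unadjusted edgeR p under 0.05. Of 9 MHC class II genes edgeR called 0 and DESeq2 1, while 4 had an unadjusted p under 0.05 and 3 were called with the replicate block. Cd74, the invariant chain, had 56.3, 38.3 and 55.2 CPM at 3 d, against 26.3, 28.6, 21.9 and 26.1 CPM in intact mice (edgeR, adjusted p = 0.0644). Of 21 class I genes 4 fell and 1 rose (19% and 4.76%, against 6.15% and 3.83% of all genes). Among the class I genes the rise was not called without any 1 intact library or without 3 d replicate 1 or 3. B2m, their shared light chain, had 75.8, 108 and 105 CPM at 3 d against 164, 127, 181 and 182 CPM in intact mice, and was not called without 3 d replicate 1 (adjusted p = 0.0852) or with library totals alone (0.947). Of 41 interferon-stimulated genes 5 rose and 3 fell (12.2% and 7.32%, against 3.83% and 6.15% of all genes). Rises numbered 0 without 3 d replicate 3, 1 without intact replicate 1, 2 or 3, 2 without intact replicate 4 and 3 without 3 d replicate 1, which also left 1 fall. The library of 3 d replicate 3 had 19.8 CPM of the GTPase Gbp4, against 2.07 and 0.708 CPM in 3 d replicates 1 and 4 and 0.294 to 1.45 CPM in intact mice. Without 3 d replicate 3 the adjusted p of Gbp4 was 0.659, and it was 0.065 and 0.0583 without intact replicates 3 and 4.

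Most genes of stroma and vessels were not called. Of 52 fibroblast and matrix genes 4 rose (7.69%, against 3.83% of all genes) and none fell, with a median of 0.07. Falls numbered 3 with only the groups compared in the fit, and 1 by DESeq2, with the replicate block or without 3 d replicate 4. Lum, a collagen-binding proteoglycan, had 14.8, 21.6 and 7.61 CPM at 3 d, against 0.401, 2.42, 0.687 and 3.47 CPM in intact mice. Dcn, a related proteoglycan, had 229, 290 and 181 CPM against 98.5, 94.4, 110 and 122 CPM, and Fbln1, fibulin, rose by 1.63 ± 0.36. Of 25 smooth muscle genes 1 fell (4%, against 6.15% of all genes). The falls numbered 0 without intact replicate 2 or 3 or 3 d replicate 3 or 4, with the replicate block or with library totals alone. They numbered 2 by DESeq2 and 4 with only the groups compared in the fit. In that fit and with library totals alone 1 gene rose. The smooth muscle list took 0.405, 0.413 and 0.226% of counts at 3 d, against 0.316, 0.372, 0.204 and 0.339% in intact mice. Of 31 endothelial genes 1 was called (3.23%), the growth factor gene Vegfa, which fell, and 0 without 3 d replicate 4. With library totals alone 0 fell and 4 rose. Of 29 luminal and basal keratin and lineage genes 1 was called, upward (3.45%), and 0 without intact replicate 3 or 4 or 3 d replicate 1 or 3. Rises numbered 2 with RLE factors (another scaling) or the replicate block, and 3 by DESeq2. They numbered 5 with only the groups compared and 18 with library totals alone.

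On the diet with 24 mg folic acid per kg, in other mice, most genes called on the control diet were called again. There 814 genes had risen at 3 d (6.07%) and 1109 had fallen (8.27%), 14.3% in all. Of the genes that rose on the control diet 313 also rose there, which is 60.9% of the 514 and 38.5% of the 814. Of those that fell 597 also fell there, 72.4% of the 825 and 53.8% of the 1109. No gene passed the test of a difference between the diets' responses (edgeR, interaction, 0% called), while 650 had an unadjusted p under 0.05 and DESeq2 called 3. The lowest adjusted p was that of Kcnn4, a calcium-activated potassium channel (0.0602). Kcnn4 changed by -0.94 ± 0.30 on the control diet and by -3.23 on the folic acid diet, where it had 3.08, 3.57, 6.01 and 5.89 CPM at 3 d against 32.7, 46.5, 59.7 and 34.3 CPM in intact mice. On the control diet it had 10.9, 12.9 and 9.02 CPM at 3 d against 22.7, 19.0, 18.5 and 24.0 CPM in intact mice, and was not called without any 1 of these 7 libraries (0.0601 to 0.178).

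Of the genes called on both diets 1 had opposite directions. Eme2, a subunit of a DNA repair nuclease, had 8.30, 9.83 and 10.4 CPM at 3 d, against 19.2, 17.4, 19.3 and 17.6 CPM in intact mice when fed the control diet, and 15.6, 19.7, 27.6 and 10.1 CPM against 12.4, 10.6, 7.98 and 10.7 CPM on the folic acid diet. The interaction was not called (adjusted p = 0.408), and its fall on the control diet was not called without intact replicate 1 or 3 or any 1 of the 3 d libraries (0.0628 to 0.12). Fabp5 rose by 2.37 on the control diet and changed by 0.54 on the folic acid diet (interaction, adjusted p = 0.455), and Ppp1r1b, a protein phosphatase inhibitor, changed by 1.199 and -0.20 (0.53).

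**Figure D4:**
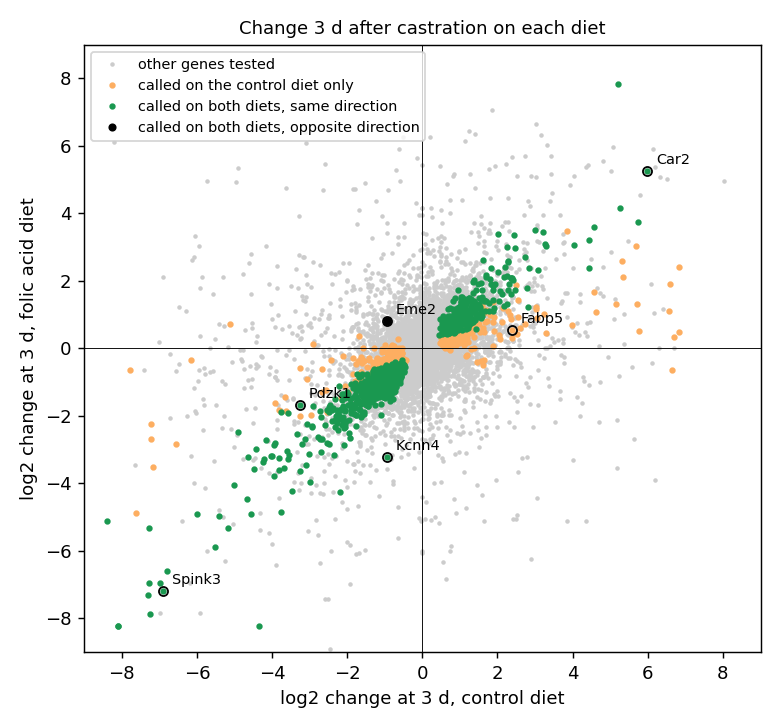
Log2 change at 3 d after castration over intact on the control diet (x axis) and on the folic acid diet (y axis), 1 point per gene, with 2 of 13412 genes outside the axes. Green genes are called on both diets in the same direction, orange ones on the control diet only, and the black point is Eme2, called in opposite directions.

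Few genes were called between 10 d and 3 d on the control diet, 12 higher (0.0895%) and 35 lower (0.261%) at 10 d, 47 in all (0.35%). The total was 28 without 3 d replicate 4, 30 without 3 d replicate 3 or 10 d replicate 1, and 145 by DESeq2. Between 10 d and 3 d, 1401 of 13412 genes had an unadjusted edgeR p under 0.05, so the low count does not show that few genes differed. This comparison shares the 3 d libraries with the one above, so values are given side by side. Of 33 cholesterol genes 5 were called higher at 10 d (0.0895% of all genes were), with Cyp51, Insig1, Idi1 and Sqle among them. Low values in the 3 d libraries enter both comparisons, so a return of these genes was not tested independently. Cyp51 had 208, 194, 196 and 227 CPM in intact mice, 55.4, 40.9 and 50.9 CPM at 3 d and 244, 134, 142 and 81.0 CPM at 10 d, with a log2 change of 1.61 at 10 d over 3 d (edgeR, adjusted p = 0.0026). Sgpl1 went the other way, with 98.8, 82.5, 84.5 and 87.8 CPM in intact mice, 249, 204 and 262 CPM at 3 d and 114, 126, 140 and 93.0 CPM at 10 d (-1.01, 0.0033). Spink3, Sbp and Abo were lower again at 10 d than at 3 d (-3.18, -2.28 and -1.39), while Fabp5, Gas6 and Cxcl5 were higher again (1.47, 0.98 and 3.04). Of the 40 folding genes 1 was called, lower at 10 d, and their median was 0.32.

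**Figure D5:**
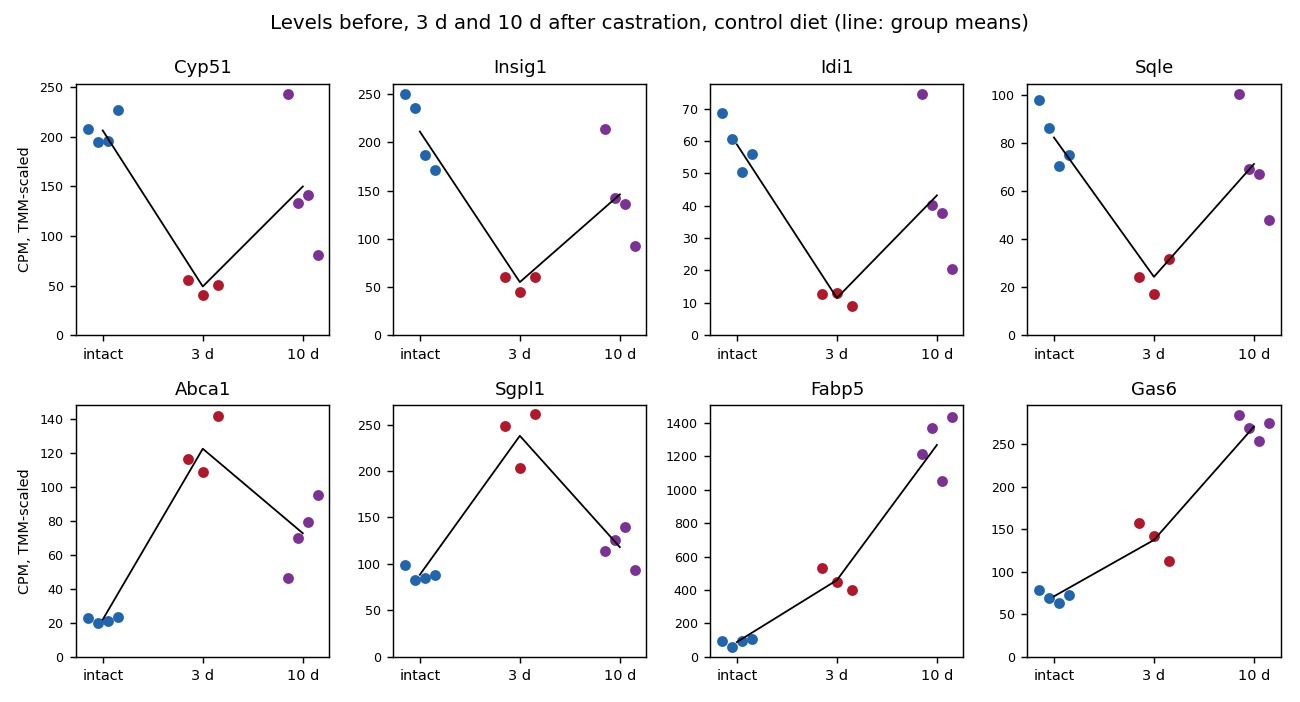
Levels in CPM scaled by TMM factors of 8 genes on the control diet in intact mice (blue, 4 libraries), at 3 d (red, 3 libraries) and at 10 d after castration (purple, 4 libraries), each point 1 library with a line through the group means. Cyp51, Insig1, Idi1 and Sqle are lowest at 3 d, Abca1 and Sgpl1 are highest at 3 d, and Fabp5 and Gas6 are highest at 10 d.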

How the data were processed

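Ventral prostate RNA was enriched with oligo-dT, fragmented and primed with random hexamers, per the labels' protocols. The authors deposited expected counts per gene, made with RSEM 1.2.3 and Bowtie 0.12.9 on mm10 after bcl2fastq 2.17.1.14, per the submitters' processing notes. No annotation, strand setting or length of reads is named in the sources used here. Reads shared between related or overlapping genes were divided by estimate. Of the values above 0, 29.5% were not whole (tolerance 1e-06) and were rounded. One column without a sample label (1 in all) was not used.

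Genes with enough counts (filterByExpr, minimum 10, total 15) were scaled by TMM and tested with edgeR 4.0.16 (R 4.3.3), quasi-likelihood with robust fit, 1 mean per group over all 23 libraries, so that the groups share 1 estimate of spread. SE was the log2 change divided by the square root of F. Alternatives were RLE factors, library totals, no filter, the replicate number as a block, only the groups compared, DESeq2 1.42.0 and each library left out. The replicate numbers did not pair the groups (r from -0.0955 to -0.00801). Gene positions are from GENCODE M21 and promoters from RefSeq, both GRCm38. A promoter was found for 10687 of 13412 tested genes. Genes named were, by rule, the 20 largest called changes each way without overlap, the 12 largest in CPM each way, up to 6 of each list, regulators, and the leading genes of the other contrasts, and not all are reported here. The genes of sphingosine 1-phosphate were set together after their values were seen. Members and lists were chosen with earlier results of these data known. The edgeR test of castrated against intact mice on the control diet was also run on simulated data. No result of that run is given here, and no such run is reported for the other tests.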

Additional observations from a re-analysis of the deposited data

Results flagged for a closer look

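In 8 of the measures checked, 148 genes and 9 shares of counts, 1 of the 4 intact libraries stood apart from the others. It did so by most of the group's range (Dixon's 95% limit), which chance gives in about 1 of 20 groups. The measures come from the same 4 libraries and are not independent, so the count cannot be weighed against that rate. Intact replicate 2 held 0.462% of counts in skeletal muscle genes and 0.0143% in fat cell genes, and it alone had counts of Il1b (1.328 CPM). Intact replicate 3 was low in Hspa5 (2721 CPM) and high in S1pr3 (51.64 CPM) and Krt18 (857.1 CPM). Intact replicate 4 was low in Kdelr3 (30.37 CPM) and Sgpp1 (590.4 CPM). The 3 d libraries lay below these levels in Hspa5, S1pr3, Kdelr3 and Sgpp1, with no overlap.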

How the results depend on the processing

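With RLE factors 1341 genes were called at 3 d on the control diet, 1300 of them shared with the 1339 of the report. The replicate block gave 1325 (1214 shared), DESeq2 1686, no filter 1223 and a fit of only the groups compared 1852. Library totals alone gave 5696 calls, 95.9% of them higher against 38.4% with TMM, and 6592 on the folic acid diet and 1275 between 10 d and 3 d. On that scale Atf6 (0.532), Krt18 (0.709) and Sgpp1 (0.173) turned positive, each being called with TMM, with library totals or with both. Another 7 of the 148 named genes changed sign without a call on either scale. A further 22 of the named genes were no longer called (adjusted p from 0.0516 to 0.947). These were Sec61a1, Srprb, Canx, Atf4, Ddost, Stt3b, Uggt1, Mcfd2, Sec24d, Mars, Cycs, Srebf2, Scd1, Fasn, Bcl2l2, Hoxb13, Ncoa4, Vegfa, B2m, Slc39a6, Kcnn4 and Eme2. Leaving out 1 library gave 906 to 1135 calls on the control diet, 1272 (without intact replicate 2 of that diet) to 2143 on the folic acid diet, 0 to 2 for the interaction and 28 to 52 between 10 d and 3 d. The interaction had 1 call with no filter, 1 with only the groups compared and 3 by DESeq2, which called 145 genes between 10 d and 3 d. The causes of these shifts were not tested. The Sbp share differed by -21.7 to -20.8 points and that of the 20 most abundant genes by -22.3 to -21.6 without 1 library, with p at the smallest that such groups allow (0.0667 or 0.1). The block changed 1 named call to not called (Defb50, 0.0997) and 2 the other way. Genes under a few CPM rest on few counts, and 3 and 4 libraries limit what can be called.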
